A study of Homo sapiens with 18 samples.

Results

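The 9 genes studied belong to bone morphogenetic protein (BMP) signalling and were read in HCT116 cells, a human epithelial line from a colorectal carcinoma: the ligands BMP2 and BMP4, the pseudoreceptor BAMBI, the inhibitory SMADs SMAD6 and SMAD7, and the ID genes ID1, ID2, ID3 and ID4. They were chosen by symbol as a named signalling group, with earlier results of these data known. Of these, 9 of 9 were found among the 61552 genes of the count table. The cells were knock-ins for IκBα, which NFKBIA encodes. This protein binds NF-κB outside the nucleus and is destroyed when cells meet inflammatory cues, among them tumour necrosis factor (TNF). The 3 knock-in lines were a wild-type IκBα (WT), a mutant named for residue 108 (N108) and a triple mutant with alanine at residues 84, 85 and 86 (M3). Each was sequenced untreated and after 40 min of human TNFα at 0.1 µg/mL, with 3 libraries in each of 6 groups, 18 in all. All 6 groups share the HCT116 background, and the WT group is itself a knock-in. Each genotype is labelled as 1 line, so a mutation and the history of its line cannot be told apart. Nothing in the labels says whether replicates came from separate cultures, so p-values reflect library-to-library spread only, part of which may be technical.

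BMP ligands are secreted dimers that bring together type I and type II receptor kinases, which phosphorylate SMAD1, SMAD5 and SMAD9. With SMAD4 these enter the nucleus and act on target genes, among them ID1, ID2 and ID3, and also SMAD6, SMAD7 and BAMBI, which feed back to restrain the receptors. ID proteins lack a DNA-binding domain and capture E proteins, and so keep other basic helix-loop-helix factors off DNA. In the intestine, BMP signalling is strongest towards the villus or the crypt top and restrains stem cells, while secreted antagonists are made around the crypt base. The question asked here is how the genes of this pathway stand in the 3 lines and after TNF, in a study that, by its title, concerns IκBα mutants and intestinal stemness.

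The promoters of ID1, ID4 and SMAD6 are shown because ID1 was the most abundant member and a TNF-lowered one, while ID4 and SMAD6 held the widest differences between lines. RefSeq promoter windows on GRCh38.p14 were matched by symbol for 8 of the 9 members, with no entry for BMP2. Each sequence holds the bases before the transcription start that lie outside GENCODE 29 exons, 5′ to 3′ on the gene's strand. The ID1 stretch is chr20:31605039-31605282 (plus strand, 244 bases), that of ID4 chr6:19837120-19837369 (plus strand, 250 bases) and that of SMAD6 chr15:66701986-66702227 (plus strand, 242 bases). Capitals mark matches, on either strand, to the motifs searched.
ID1: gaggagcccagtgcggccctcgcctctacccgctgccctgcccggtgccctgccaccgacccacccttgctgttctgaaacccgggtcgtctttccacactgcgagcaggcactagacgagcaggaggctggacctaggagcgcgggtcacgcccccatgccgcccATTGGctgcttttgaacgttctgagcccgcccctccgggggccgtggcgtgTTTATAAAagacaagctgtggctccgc
ID4: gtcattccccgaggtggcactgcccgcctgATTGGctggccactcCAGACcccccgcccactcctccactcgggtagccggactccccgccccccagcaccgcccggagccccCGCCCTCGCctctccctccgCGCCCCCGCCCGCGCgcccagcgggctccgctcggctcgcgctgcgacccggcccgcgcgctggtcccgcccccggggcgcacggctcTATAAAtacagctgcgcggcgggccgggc
SMAD6: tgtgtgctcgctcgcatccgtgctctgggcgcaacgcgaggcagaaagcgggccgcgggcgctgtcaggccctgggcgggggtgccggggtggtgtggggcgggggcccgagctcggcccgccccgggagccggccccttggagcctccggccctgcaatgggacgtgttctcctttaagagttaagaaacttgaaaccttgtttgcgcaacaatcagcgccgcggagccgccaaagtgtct
The motifs searched on both strands in the 250 bases before each start were the GC-rich SMAD element GGCGCC, the SMAD box CAGAC, the κB-like GGGNNTTCC, the EGR box GCGNGGGCG, CCAAT and TATAAA. The ID1 window held CCAAT at -84 to -80 and a pair of TATAAA matches that overlap on opposite strands, at -33 to -28 and -31 to -26. The ID4 window held CCAAT at -220 to -216, CAGAC at -205 to -201, TATAAA at -29 to -24 and 3 EGR boxes, of which those at -117 to -109 and -111 to -103 overlap. SMAD6 held no match. Of the windows not printed, BAMBI held 3 GGCGCC matches between -209 and -176, and ID2 held 3 CCAAT matches and 1 EGR box. The first listed start of BMP4 held 1 GGCGCC and 1 CAGAC, and the first start of SMAD7 held 2 CAGAC. No member window held GGGNNTTCC. Among all 35116 promoter windows of the same length, 16.4% held GGCGCC, 38% CAGAC, 5.78% GGGNNTTCC, 8.41% the EGR box, 32% CCAAT and 10.7% TATAAA. These matches describe letters in the windows and not sites in use.

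Library totals lay between 49021907 and 76947190 counts. NFKBIA, the edited gene, was read untreated at 91.6 ± 4.6 CPM (WT), 30.3 ± 1.8 CPM (N108) and 77.9 ± 1.2 CPM (M3) (SD, n = 3 libraries each), where CPM is the gene's count scaled to the library total. After TNF the respective levels were 758 ± 20, 276 ± 19 and 966 ± 21 CPM, so the treatment label held in every line; the level of the edited gene does not check the mutations. Epithelial markers were present (EPCAM 278 to 381 CPM, KRT8 1710 to 3220 CPM), except VIL1 at 0.219 CPM or less. The 7 epithelial markers summed to 6250 to 6890 CPM in WT, 4810 to 5310 in N108 and 3730 to 4400 in M3, and the part of this difference in the results on the lines was not tested. Leukocyte markers summed to at most 0.305 CPM, red cell markers to at most 0.232 CPM and endothelial ones to at most 1.75 CPM, mostly VWF. DCN and LUM, markers of stroma, were at 0 in every library, while COL1A1 was read at 15.3 to 36.4 CPM. The rank correlation between gene GC content and a library's deviation from the mean of all was 0.39 and 0.59 in N108 TNF replicates 1 and 2, against -0.39 to 0.29 in the other 16 libraries.

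BMP4, a secreted ligand, was the one of the pair with a measurable transcript level, and it was higher in N108. BMP4 (ENSG00000125378, chr14:53949736-53958761, minus strand) stood at 104, 102 and 107 CPM in the untreated WT libraries and at 98, 98.8 and 106 CPM with TNF. In N108 it was read at 176, 160 and 170 CPM untreated and at 164, 170 and 165 CPM with TNF. In M3 the values were 104, 106 and 111 CPM untreated and 97.9, 94.3 and 91.4 CPM with TNF. Every N108 library lay above every library of the other lines, and untreated M3 and WT overlapped. Untreated, BMP4 was 1.62-fold higher in N108 than in WT (log2 fold change 0.70 ± 0.046 SE, adjusted p = 1.1e-12). The difference was as large with TNF (1.65-fold, adjusted p = 5.8e-13) and stood at 1.58-fold against untreated M3 (adjusted p = 9.7e-12). M3 and WT untreated differed by 0.04 ± 0.046 on the log2 scale (adjusted p = 0.5). In bulk RNA, more cells with a transcript and more transcript in each cell cannot be told apart.

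BMP2 (ENSG00000125845, chr20:6767664-6780280, plus strand), the other ligand among the members and a close relative of BMP4, was not detectable at this depth. A single read was counted in the 18 libraries, in WT untreated replicate 3 (0.02 CPM). A count of 0 allows up to 3 counts, which is 0.039 to 0.0612 CPM in a library without a read. The limit covers counting error only. BMP2 did not pass the filter on low counts, so calls of members are among the 8 that were tested.

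BAMBI encodes a receptor-like membrane protein without a kinase domain that blocks signalling by occupying receptor complexes. BAMBI (ENSG00000095739, chr10:28677342-28682939, plus strand) was read at 6.24, 5.73 and 6.54 CPM in untreated WT and at 7.01, 6.61 and 7.64 CPM with TNF. In N108 it stood at 8.29, 7.62 and 7.52 CPM untreated and at 7.22, 6.77 and 6.55 CPM with TNF. In M3 it stood at 5.92, 5.22 and 5.61 CPM untreated and at 4.98, 4.2 and 5.32 CPM with TNF. The untreated N108 libraries were above all those of untreated WT and M3, and with TNF the M3 libraries were below both other lines. BAMBI was 1.27-fold higher in untreated N108 than in WT (log2 fold change 0.34 ± 0.085, adjusted p = 0.0017), whereas with TNF the lines overlapped (-0.05, adjusted p = 0.66). M3 against WT gave -0.14 ± 0.088 untreated (adjusted p = 0.18) and -0.55 ± 0.09 with TNF, a 1.46-fold lower level (adjusted p = 9.8e-06).

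The inhibitory SMADs differed from each other in how they stood in the lines. SMAD6, which mainly restrains BMP receptors and SMAD1 signalling, was lower in both mutants. SMAD6 (ENSG00000137834, chr15:66702228-66782848, plus strand) was read at 25.3, 25 and 26.5 CPM in untreated WT and at 29.1, 27.9 and 29.5 CPM with TNF. The N108 libraries gave 20.3, 18.7 and 18.8 CPM untreated and 21.1, 22.2 and 20.6 CPM with TNF. The M3 libraries gave 9.31, 8.65 and 9.48 CPM untreated and 8.54, 8.53 and 9.57 CPM with TNF. The 3 lines formed 3 separate levels, WT highest and M3 lowest, with no overlap between lines in either condition. Untreated, SMAD6 was 2.8-fold lower in M3 than in WT (log2 fold change -1.49 ± 0.061, adjusted p = 1.4e-17), a change that 4.8% of all tested genes matched or exceeded. It was 1.33-fold lower in N108 (-0.41 ± 0.057, adjusted p = 1.1e-06) and 2.1-fold higher in N108 than in M3 (adjusted p = 1.2e-13). With TNF the differences from WT were -1.70 in M3 (adjusted p = 8.8e-19) and -0.44 in N108 (adjusted p = 4.5e-07).

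SMAD7, which restrains both TGF-β and BMP receptors and is itself a target of both, was higher than WT in N108 and lower in M3. SMAD7 (ENSG00000101665, chr18:48919853-48952052, minus strand) stood at 10.8, 10.2 and 10.6 CPM in untreated WT and at 12.8, 13 and 14.1 CPM with TNF. In N108 it was 15.9, 14.8 and 15.8 CPM untreated and 16.8, 16.8 and 15.9 CPM with TNF. In M3 it was 8.62, 7.8 and 8.75 CPM untreated and 8.87, 9.55 and 10.1 CPM with TNF. Again the lines did not overlap within a condition, but here N108 was the highest. Untreated, SMAD7 was 1.47-fold higher in N108 (log2 fold change 0.55 ± 0.064, adjusted p = 7e-08) and 1.26-fold lower in M3 (-0.33 ± 0.068, adjusted p = 0.00017). The gap between N108 and M3 was 1.84-fold (adjusted p = 3.5e-11). With TNF the difference from WT was 0.31 in N108 (adjusted p = 0.0003) and -0.49 in M3 (adjusted p = 6e-07).

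**Figure D1:**
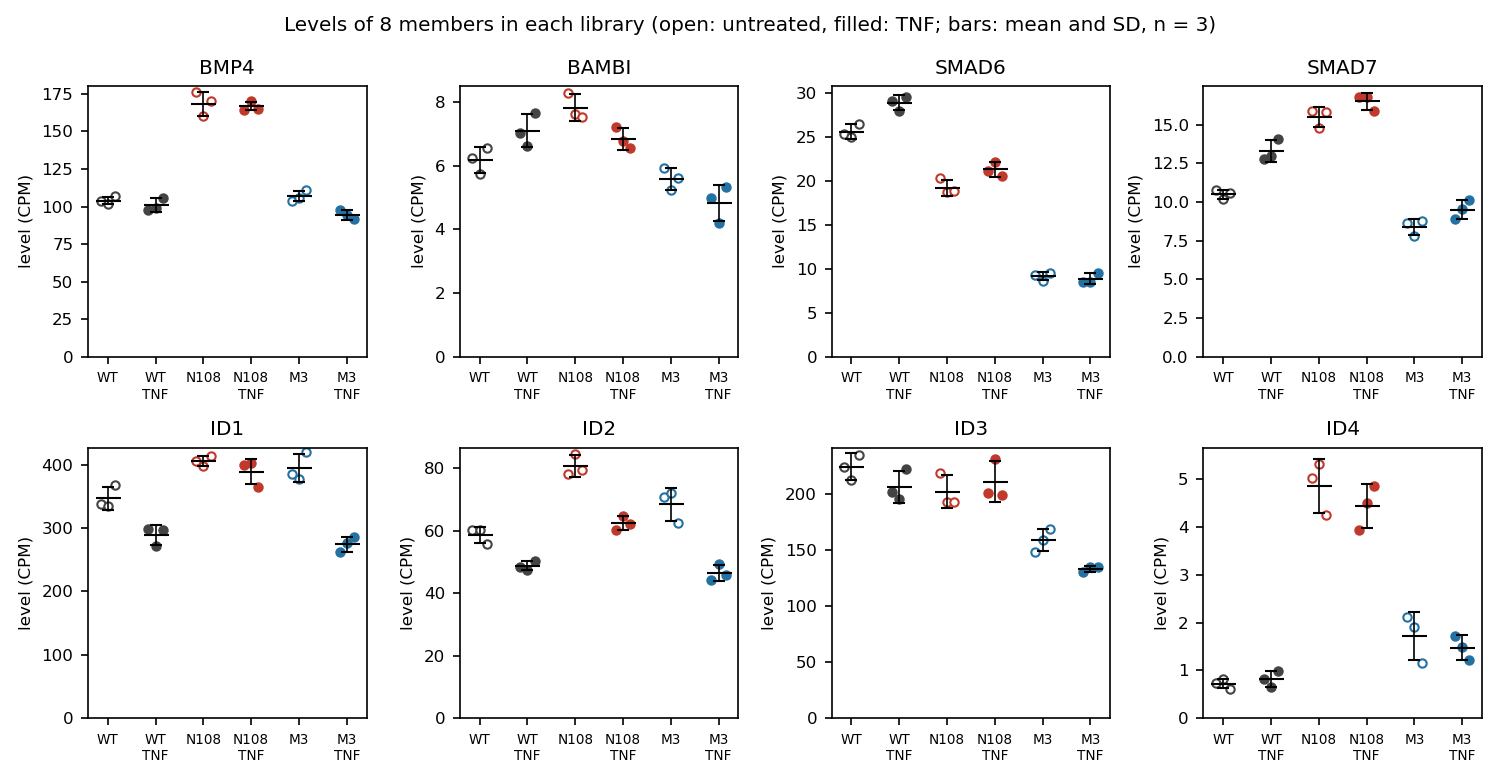
Level of each tested member in every library (vertical axis, CPM, from 0), by line and treatment, open points untreated and filled points with TNF, with bars for the mean and SD of 3 libraries. BMP4 is highest in N108, SMAD6 forms 3 levels by line, and ID4 is lowest in WT.

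Among the ID genes, ID1 was the most abundant per length of exon. In untreated WT it stood at 281 ± 15 CPM per kilobase, ahead of ID3 at 125 ± 6.4, ID2 at 26.6 ± 1.1 and ID4 at 0.308 ± 0.042. ID1 (ENSG00000125968, chr20:31605283-31606515, plus strand) was read at 338, 335 and 368 CPM in untreated WT and at 299, 271 and 297 CPM with TNF. In N108 the values were 405, 398 and 414 CPM untreated and 399, 402 and 365 CPM with TNF. In M3 they were 385, 377 and 419 CPM untreated and 262, 276 and 285 CPM with TNF. Untreated, both mutants lay above all WT libraries and overlapped each other, and with TNF the N108 libraries alone stayed above WT. The untreated difference from WT was 1.17-fold in N108 (log2 fold change 0.23 ± 0.052, adjusted p = 0.00079) and 1.14-fold in M3 (0.18 ± 0.052, adjusted p = 0.004). Changes of that size were common, since 47.8% and 63.8% of all tested genes changed as much for these 2 comparisons. With TNF the difference was 0.43 in N108 (adjusted p = 1.3e-07) and -0.07 in M3 (adjusted p = 0.23).

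ID2 followed a like order at lower levels. ID2 (ENSG00000115738, chr2:8678845-8684453, plus strand) stood at 60.1, 60.1 and 55.7 CPM in untreated WT and at 48.5, 47.4 and 50.3 CPM with TNF. N108 gave 78, 84.6 and 79.3 CPM untreated and 60.1, 64.8 and 62.3 CPM with TNF. M3 gave 70.9, 72.1 and 62.4 CPM untreated and 44.4, 49.5 and 46 CPM with TNF. The untreated libraries fell into 3 separate ranges, N108 above M3 above WT. ID2 was 1.37-fold higher in N108 (log2 fold change 0.46 ± 0.056, adjusted p = 1.3e-07) and 1.17-fold higher in M3 (0.22 ± 0.056, adjusted p = 0.0014). With TNF the difference was 0.36 in N108 (adjusted p = 8.9e-06) and -0.07 in M3 (adjusted p = 0.35). ID2-AS1, which overlaps ID2 on the other strand, had 69 to 200 counts in a library against at least 2388 for ID2.

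ID3 stood apart from ID1 and ID2, being lower in M3 and in no called difference between N108 and WT. ID3 (ENSG00000117318, chr1:23557918-23559794, minus strand) was read at 224, 212 and 235 CPM in untreated WT and at 202, 195 and 222 CPM with TNF. N108 gave 219, 193 and 193 CPM untreated and 201, 231 and 199 CPM with TNF. M3 gave 148, 159 and 169 CPM untreated and 130, 135 and 135 CPM with TNF. The M3 libraries were below all others, whereas the WT and N108 ranges overlapped in both conditions. ID3 was 1.41-fold lower in untreated M3 than in WT (log2 fold change -0.50 ± 0.064, adjusted p = 3.8e-07) and 1.55-fold lower with TNF (adjusted p = 8.1e-09). N108 against WT untreated gave -0.15 ± 0.063 (adjusted p = 0.057). That value was called without the low-count filter (adjusted p = 0.012), in a fit of the groups compared alone (0.019), without N108 untreated replicate 1 (-0.21, adjusted p = 0.013) and without WT untreated replicate 2 (-0.19, adjusted p = 0.037), the 14 alternatives giving adjusted p from 0.012 to 0.22.

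ID4 was the scarcest member that passed the filter and had the widest gap between lines. ID4 (ENSG00000172201, chr6:19837386-19840684, plus strand) was read at 0.734, 0.814 and 0.62 CPM in untreated WT and at 0.813, 0.653 and 0.992 CPM with TNF. N108 gave 5.03, 5.32 and 4.24 CPM untreated and 3.94, 4.51 and 4.85 CPM with TNF. M3 gave 2.11, 1.9 and 1.16 CPM untreated and 1.72, 1.5 and 1.21 CPM with TNF. N108 was highest, M3 between and WT lowest, with no overlap between lines in either condition. Untreated, ID4 was 6.66-fold higher in N108 than in WT (log2 fold change 2.74 ± 0.18, adjusted p = 2.1e-12) and 2.36-fold higher in M3 (1.24 ± 0.2, adjusted p = 1.3e-05). Only 0.83% of all tested genes differed as much between N108 and WT. N108 exceeded M3 by 2.82-fold (adjusted p = 3.8e-08). With TNF the differences from WT were 2.43 in N108 (adjusted p = 4.5e-11) and 0.85 in M3 (adjusted p = 0.0016). The antisense gene LNC-LBCS overlaps ID4 and had untreated means of 0.323 CPM (WT), 1.6 CPM (N108) and 0.586 CPM (M3). Whether the counting told the strands apart is not stated in the labels, and its part in the ID4 result was not tested.

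Summed per length of exon, the ID genes came to 433 ± 19.9 CPM per kilobase in untreated WT, 480 ± 8.08 in N108 and 440 ± 20.2 in M3. The N108 libraries (471 to 487) lay above those of WT (417 to 455), while those of M3 (428 to 463) overlapped WT. The makeup of the sum also differed between the lines. The share of ID1 was 65 ± 0.656% (WT), 68.6 ± 1.25% (N108) and 72.6 ± 1% (M3), with 3 separate ranges. ID3 held 28.8 ± 0.451% in WT, 23.4 ± 1.4% in N108 and 20.1 ± 0.681% in M3, likewise without overlap. ID4 held at most 0.482% in any library.

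**Figure D2:**
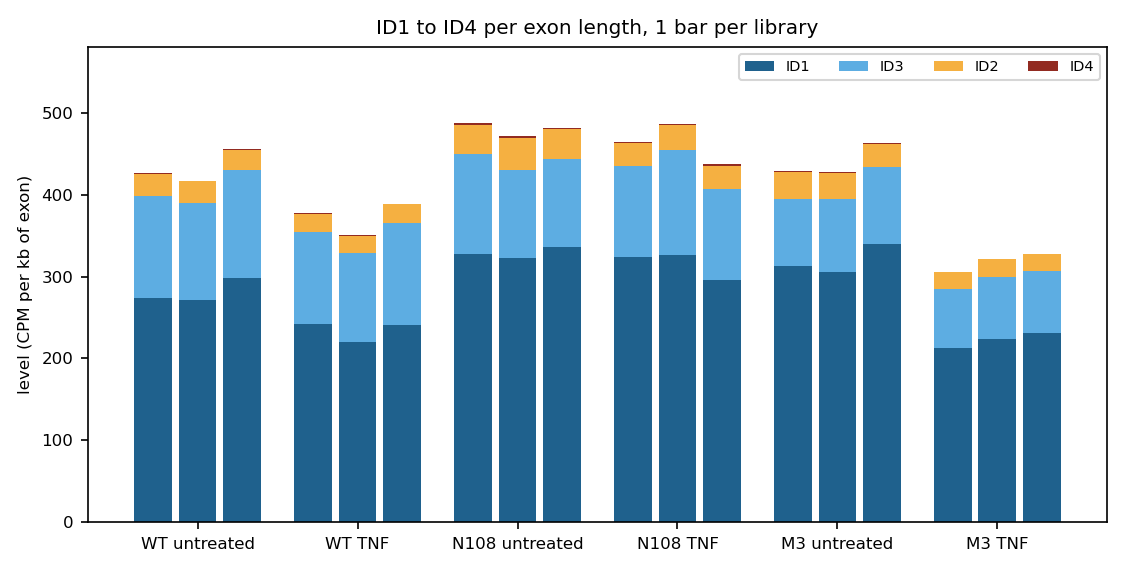
Stacked levels of ID1, ID3, ID2 and ID4 in CPM per kilobase of exon (vertical axis), 1 bar for each of the 18 libraries. ID1 is the widest segment in every library, ID4 is barely visible, and the 3 bars of M3 with TNF are the shortest.

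Of the 8 tested members, 7 differed between untreated N108 and WT, 6 higher (ID1, ID2, ID4, SMAD7, BMP4 and BAMBI) and 1 lower (SMAD6), while 42.4% of the 19038 genes tested were called, 20.9% higher and 21.6% lower. The median log2 fold change of the tested members was 0.40, against 0.01 over all genes. In untreated M3, 6 members differed from WT, 3 higher (ID1, ID2 and ID4) and 3 lower (ID3, SMAD6 and SMAD7), where 52.9% of all genes were called, 26.1% higher and 26.8% lower. The directions were evenly split, as they nearly were over all genes, and the members' median was -0.05. With TNF 6 members differed between N108 and WT, 5 higher and 1 lower, where 46.7% of all genes were called, 23% higher and 23.6% lower. Between M3 and WT with TNF 5 members differed, 1 higher and 4 lower, where 54.7% were called, 26.9% higher and 27.8% lower. N108 against M3 untreated gave 7 members higher and none lower, ID1 being the one tested member without a call (1.03-fold, adjusted p = 0.58), where 31.5% of genes were called, 16.4% higher and 15% lower. These comparisons share the WT or the N108 libraries, so they are not independent of each other. The shares over all genes were not matched to the members' abundance. In simulated counts, genes changed by a log2 of 1 were recovered more often among those of at least 1 CPM.

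**Figure D3:**
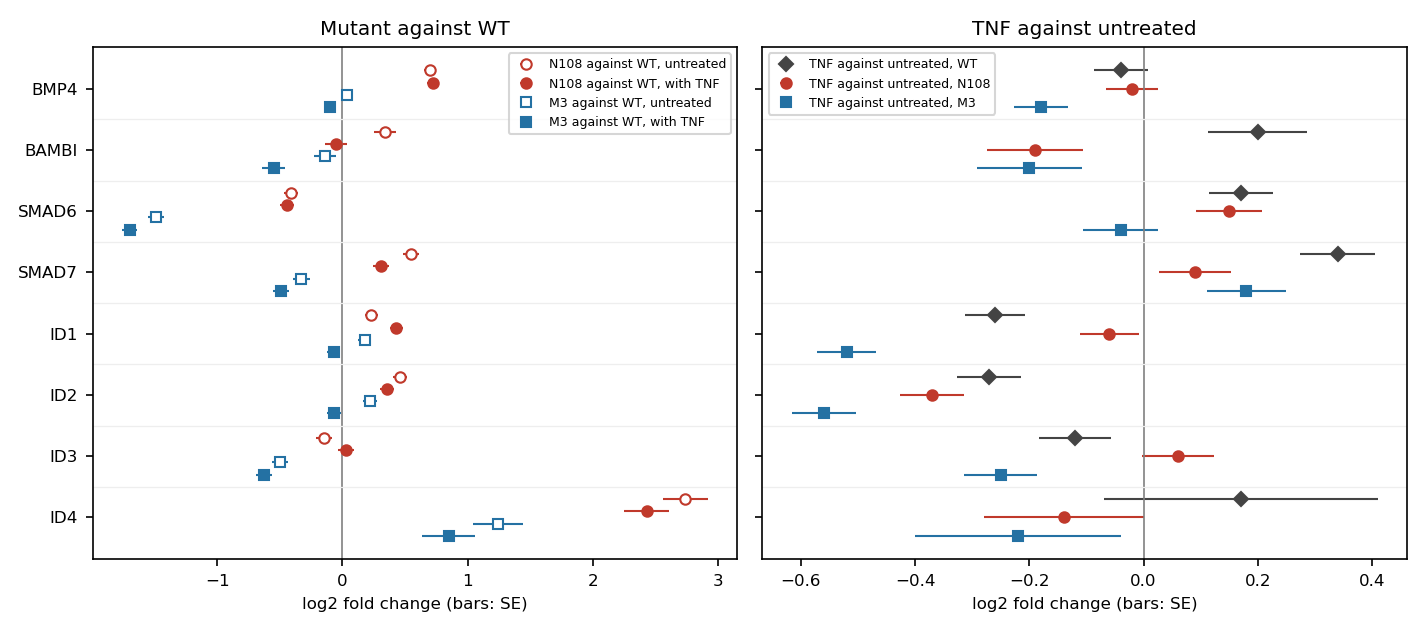
Log2 fold change (horizontal axis) with its standard error for each tested member, mutants against WT on the left (open symbols untreated, filled with TNF) and TNF against untreated on the right. ID4 and then BMP4 lie furthest to the higher side in N108, and SMAD6 furthest to the lower side in M3; on the right ID2 is below 0 in all 3 lines.

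TNF for 40 min lowered ID1 and ID2 and raised SMAD7 in WT cells. ID1 fell 1.2-fold (log2 fold change -0.26 ± 0.052, adjusted p = 0.0016) and ID2 fell 1.2-fold (-0.27 ± 0.056, adjusted p = 0.0033), with all 3 treated libraries below all 3 untreated ones for each gene. SMAD7 rose 1.26-fold (0.34 ± 0.066, adjusted p = 0.0015), again without overlap. The libraries of SMAD6 and BAMBI, which were not called, did not overlap either, so 5 members in all were without overlap. The share of all genes without overlap was not determined. Calls in WT thus fell on 3 of the 8 tested members, 1 higher and 2 lower. Of all genes 5.18% were called, 2.03% higher and 3.15% lower. Changes as large as those of ID1, ID2 and SMAD7 were seen in 20.2%, 19.8% and 15.4% of all tested genes. SMAD6 in WT gave 0.17 ± 0.056 (adjusted p = 0.076). It was called with DESeq2 (adjusted p = 0.036) and with the GC trend removed (0.22, adjusted p = 0.0023), and its adjusted p over 14 alternatives ran from 0.0022 to 0.3. BMP4 (-0.04, adjusted p = 0.69), ID3 (-0.12, adjusted p = 0.33), ID4 (0.17, adjusted p = 0.76) and BAMBI (0.20, adjusted p = 0.2) were not called.

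In M3 the fall of ID1 and ID2 was also called, and ID3 joined them. ID1 fell 1.43-fold (log2 fold change -0.52 ± 0.052, adjusted p = 5.2e-08), from 394 ± 22 to 274 ± 12 CPM. ID2 fell 1.47-fold (-0.56 ± 0.056, adjusted p = 7.1e-08), from 68.5 ± 5.3 to 46.6 ± 2.6 CPM. No treated library reached the lowest untreated one for these genes, and 5.63% and 5.05% of all genes changed as much. Treated and untreated libraries were also apart for ID3, and for BMP4 and SMAD7, which were not called. For M3, too, the share of all genes without overlap was not determined. ID3 fell 1.19-fold (-0.25 ± 0.064, adjusted p = 0.044). The ID3 call was lost without M3 untreated replicate 2 (adjusted p = 0.13) or 3 (0.27) and without M3 TNF replicate 1 (0.24), 2 (0.12) or 3 (0.12), with adjusted p from 0.00013 to 0.27 over 14 alternatives. BMP4 was at -0.18 ± 0.047 (adjusted p = 0.055) and was called with DESeq2 (0.016), with a filter of 1 CPM in 3 libraries (0.038) and with the GC trend removed (-0.16, adjusted p = 0.011), its adjusted p running from 0.011 to 0.28. The members called in M3 were thus 3, all lower, where 1.38% of all genes were called, 1.1% higher and 0.278% lower. SMAD7 gave 0.18 ± 0.069 in M3 (adjusted p = 0.37), SMAD6 -0.04 (adjusted p = 0.9), ID4 -0.22 (adjusted p = 0.79) and BAMBI -0.20 (adjusted p = 0.49).

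In N108, ID2 was the 1 member called, where 1.2% of all genes were called, 1.1% higher and 0.0998% lower. It fell 1.29-fold (log2 fold change -0.37 ± 0.056, adjusted p = 8.7e-05), from 80.6 ± 3.5 to 62.4 ± 2.3 CPM. Libraries with and without TNF did not overlap for ID2, nor for SMAD6 and BAMBI, which were not called. As in the other lines, the share of all genes without overlap was not determined. ID1 gave -0.06 ± 0.052 there (adjusted p = 0.58), with ranges that overlapped. With the GC trend removed it was -0.14 (adjusted p = 0.048), and its adjusted p over 14 alternatives ran from 0.031 to 0.87. SMAD7 gave 0.09 (adjusted p = 0.5), SMAD6 0.15 (adjusted p = 0.24), BAMBI -0.19 (adjusted p = 0.29), ID4 -0.14 (adjusted p = 0.66), ID3 0.06 (adjusted p = 0.66) and BMP4 -0.02 (adjusted p = 0.9). ID2 was therefore lower after TNF in every line. The ID sum moved from 433 to 372 CPM per kilobase in WT, from 480 to 462 in N108 and from 440 to 319 in M3.

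A fall called in one line and not in another does not show that the lines differ. The difference of each mutant's TNF response from that in WT was therefore tested as an interaction. No member was called by edgeR in either mutant, where 2.62% of all genes were called for N108 and 0.315% for M3. At an unadjusted p under 0.05 there were 3 members for N108 and 4 for M3, and DESeq2 called 1 (BAMBI) and 0. The share of all genes at that unadjusted threshold is not given here, so the unadjusted counts are not read as an excess. The response of ID1 differed from that in WT by 0.20 ± 0.073 in N108 (adjusted p = 0.11) and by -0.26 ± 0.073 in M3 (adjusted p = 0.15). The M3 value of ID1 was called without the low-count filter (-0.25, adjusted p = 0.042) and with the GC trend removed (-0.27, adjusted p = 0.0092). The N108 value was called without N108 TNF replicate 3 (0.24, adjusted p = 0.027). This N108 estimate ran from 0.07 to 0.24 over all alternatives, and from 0.16 to 0.24 on leaving out 1 library. Over 20 alternatives, adjusted p ran from 0.0047 to 0.43 in M3 and from 0.027 to 0.57 in N108. For ID2 the difference was -0.29 ± 0.08 in M3 (adjusted p = 0.13), called without M3 untreated replicate 3 (-0.35, adjusted p = 0.035; range 0.035 to 0.38). For BAMBI it was -0.39 ± 0.12 in N108 (adjusted p = 0.074), called by DESeq2 (-0.40, adjusted p = 0.045) and without the low-count filter (0.048; range 0.045 to 0.2), and -0.41 ± 0.13 in M3 (adjusted p = 0.21). For SMAD7 it was -0.25 ± 0.091 in N108 (adjusted p = 0.12), called with the GC trend removed (-0.37, adjusted p = 0.022; range 0.017 to 0.27). For the members, then, the responses were not shown to differ between either mutant and WT, and the calls moved with the setting. The responses of N108 and M3 were not tested against each other. Their estimates were furthest apart for ID1, at -0.06 ± 0.052 in N108 and -0.52 ± 0.052 in M3.

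The rest of the pathway was counted by role in lists, likewise chosen with earlier results of these data known. Comparisons are against WT and untreated unless TNF is named. The counts are to be read against the 42.4% of all genes called in N108 and the 52.9% called in M3. Of 11 tested ligands outside the members, 7 differed between untreated N108 and WT (4 higher, 3 lower) and 7 between M3 and WT (4 higher, 3 lower), with list medians of -0.05 and 0.03. TGFB1, the main TGF-β ligand, was 95.9 ± 3.9 CPM in N108 and 106 ± 1.8 CPM in M3, against 50.7 ± 0.55 CPM in WT (log2 fold change 0.92, adjusted p = 5.7e-13, and 1.07, adjusted p = 1.5e-14). TGFB2, a low-abundance relative at 1.11 ± 0.2 CPM in WT, was lower in N108 (-1.83, adjusted p = 5.2e-08) and in M3 (-2.24, adjusted p = 2.9e-09). Of 14 receptors and coreceptors, 7 differed in N108 (5 higher, 2 lower) and 6 in M3 (3 higher, 3 lower), shares near or below those of all genes. TGFBR2, the type II TGF-β receptor, was 68.2 ± 1.1 CPM in N108 against 48 ± 0.71 CPM in WT (adjusted p = 7e-09), and 50.5 ± 3.1 CPM in M3 (adjusted p = 0.25). ACVRL1, a type I receptor best known from endothelium, was lower in N108 (-0.99, adjusted p = 9.8e-06) and M3 (-2.41, adjusted p = 2.6e-11), and the BMP coreceptor RGMB was higher in both (0.22, adjusted p = 0.0028, and 0.65, adjusted p = 1.7e-10).

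Of the 6 transducing SMADs, 4 were called in each mutant untreated, 3 higher and 1 lower in N108 and 2 in each direction in M3. With TNF the N108 count was 1 higher and 3 lower and the M3 count 1 higher and 2 lower, where 46.7% and 54.7% of all genes were called, so the balance of directions in N108 held for the untreated cells only. SMAD2, which carries TGF-β and activin signals, was 132 ± 4.4 CPM in N108 and 115 ± 9.3 CPM in M3, against 176 ± 4.2 CPM in WT (-0.42, adjusted p = 2.3e-07, and -0.61, adjusted p = 1e-10). SMAD3 was higher in N108 (0.29, adjusted p = 2.7e-06) and gave 0.08 in M3 (adjusted p = 0.12). SMAD9, a BMP-regulated SMAD, was higher in N108 (0.37, adjusted p = 0.0069) and M3 (0.54, adjusted p = 0.00015). Among the 9 tested secreted antagonists, 5 were lower and none higher in each untreated mutant, where 21.6% of all genes were lower in N108 and 26.8% in M3. In each mutant 1 of these 5 was SOSTDC1, a scarce transcript at 0.391 CPM in WT, 0.047 CPM in N108 and 0.069 CPM in M3. It was below the level set for naming genes and is named for its low counts. The list's median was -0.21 in N108 and -0.41 in M3, against 0.01 and 0 over all genes. With TNF 3 were lower in N108 and 6 in M3, none higher, where 23.6% and 27.8% of all genes were lower. CHRD, which encodes chordin and binds BMPs, stood at 14.4 ± 0.13 CPM in WT, and was lower in N108 at 10.8 ± 0.71 CPM (adjusted p = 7.6e-06) and in M3 at 7.76 ± 0.25 CPM (adjusted p = 1.2e-11). With TNF, CHRD in N108 gave -0.12 (adjusted p = 0.15) and in M3 -0.98 (adjusted p = 3e-12). The follistatin-like activin binder FSTL3 was lower in N108 (-0.38, adjusted p = 1.5e-05) and M3 (-0.37, adjusted p = 1.5e-05). TWSG1, a partner of chordin, was lower in N108 (-0.16, adjusted p = 0.034) and M3 (-0.52, adjusted p = 4.6e-08).

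Of 11 intracellular brakes, 5 differed in N108 (4 higher, 1 lower) and 8 in M3 (5 higher, 3 lower), the N108 count being near the share of all genes. SMURF1, a ubiquitin ligase for BMP SMADs, was lower in N108 (-0.55, adjusted p = 5.8e-10) and gave -0.11 in M3 (adjusted p = 0.057). Its relative SMURF2 was higher in N108 (0.37, adjusted p = 5.5e-07) and M3 (0.49, adjusted p = 2.1e-09), and the corepressor TGIF2 was higher in N108 (0.46, adjusted p = 1.9e-07) and M3 (0.54, adjusted p = 6.6e-09). Of 12 other targets of BMP or TGF-β, 8 differed in N108 (4 higher, 4 lower) and 10 in M3 (4 higher, 6 lower), with list medians of -0.01 and -0.61. MSX1 and MSX2, homeobox genes that BMP induces in many tissues, were lower in M3. MSX1 stood at 25 ± 1.2 CPM against 56.3 ± 5.3 in WT (-1.17, adjusted p = 1.2e-14) and MSX2 at 4 ± 0.19 CPM against 9.67 ± 0.24 (-1.27, adjusted p = 7.4e-13). In N108 MSX1 was also lower (-0.33, adjusted p = 0.00011), and MSX2 gave 0.17 (adjusted p = 0.082). CCN2, a matricellular protein gene, was lower in N108 (-1.96, adjusted p = 1.1e-12) and M3 (-1.80, adjusted p = 3.8e-12). Of the 2 tested E protein genes, whose products ID proteins bind, TCF12 was lower in N108 (160 ± 4.5 against 260 ± 6.7 CPM, adjusted p = 4.6e-12) and in M3 (106 ± 6.2 CPM, adjusted p = 3.7e-18). TCF3 was lower in M3 (-0.28, adjusted p = 1.5e-05) and gave -0.06 in N108 (adjusted p = 0.36).

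TNF in WT called none of 14 receptors, 6 transducing SMADs, 9 antagonists and 2 E proteins by edgeR. At an unadjusted p under 0.05 these lists held 2, 2, 2 and 1 members, without a share of all genes at that threshold to set beside them. With 5.18% of all genes called, few calls would fall in lists of these sizes at the background share. TNF raised 4 of 12 other targets in WT, where 2.03% of all genes were higher, among them KLF10, an early TGF-β-inducible repressor, from 79.5 ± 3.7 to 199 ± 9.6 CPM (log2 fold change 1.32, adjusted p = 1.1e-16), and BHLHE40, from 36.9 ± 2.7 to 53.4 ± 2 CPM (0.54, adjusted p = 7.1e-06). SMURF2 rose by 0.16 on the log2 scale (adjusted p = 0.046). The one ligand called was INHBA, an activin subunit, at 0.955 CPM after TNF against 0.54 CPM before (adjusted p = 0.016); it was below the level set for naming genes and was named after its value was seen.

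**Figure D4:**
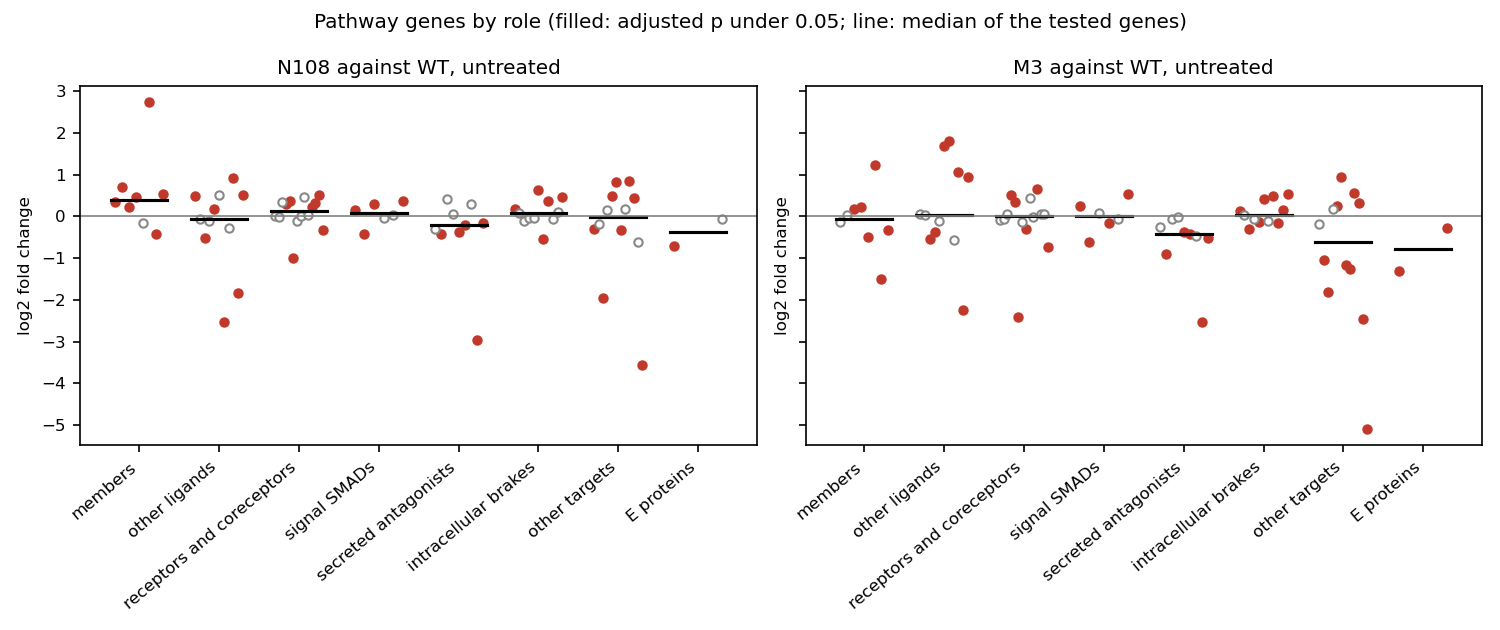
Log2 fold change of the tested genes of each role list (vertical axis, a point per gene) in N108 and in M3 against WT, untreated, with called genes filled and a line at each list's median. The called secreted antagonists lie on the lower side in both mutants.

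The genes whose profile was most like each member's were sought among 13176 genes, by Pearson correlation of log2 CPM over the 18 libraries. The libraries fall into 6 groups, so a high value mostly reflects a shared order of group means, and the values are a description. ID1 and ID2 were each among the 3 genes most like the other (r = 0.878), beside EGLN3 for ID1 (0.878) and RIMKLA for ID2 (0.886). ID3 was nearest to SSH3 and PKP3 (both 0.967), with no other member among its 3 nearest. SMAD6 was nearest to SERPING1 and TESC (both 0.992), and SMAD7 to NME1-NME2 (0.957) and JAG1 (0.956), a Notch ligand. BMP4 was nearest to ANXA10 (0.982), which stood at 2.57 CPM in untreated WT and 29.7 CPM in N108, and to DPP4 (0.975). ID4 was nearest to CHST15 (0.978) and KCNQ3 (0.974), and BAMBI to ETFA (0.919).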

How the data were processed

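RNA of 18 HCT116 libraries was read, and the authors deposited a table of raw counts per gene keyed by Ensembl gene. The submitters' processing notes list Trim Galore 0.6.6, the aligner STAR 2.7.8, Subread 2.0.1 with featureCounts, DESeq2 1.38.3 and the build hg38. For counting, neither annotation release nor strand setting is given in the sources used here. A deposited table of normalized log2 values was not used. Groups and replicate numbers came from sample titles. Positions and exon lengths are those of GENCODE 29 on GRCh38, and promoter sequences are from RefSeq.

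The test was edgeR 4.0.16 (R 4.3.3) on the counts: filterByExpr at a minimum count of 10 (19038 genes, 99.97% of counts), TMM scaling, and 1 robust quasi-likelihood fit of 6 group means over 18 libraries with 12 residual degrees of freedom. P-values are two-sided, with Benjamini-Hochberg adjustment across the whole table and calls at 0.05. A standard error (SE) is the size of the log2 change divided by the root of its F statistic. CPM used TMM-scaled totals, given as mean ± SD over 3 libraries. Floors of 3 counts cover counting error only, since reads are not independent molecules. Members and lists were chosen with earlier results of these data known. Besides the members, up to 2 called genes with the smallest p and at least 1 CPM in the higher group were named from each list, for each mutant against WT untreated and TNF in WT, and the 3 genes most like each member. A gene picked by this rule is not reported here.

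Library totals of 49021907 to 76947190 set the precision. Tested on counts simulated for the 19038 genes, 75 of 100 genes changed by a log2 of 1 and 63 of 100 changed by 0.5 were recovered for TNF in WT, and 4.83% of calls were false. The untreated N108 and WT contrast recovered 78 and 58 (4.9% false), and the interaction with M3 recovered 66 and 49 (7.26% false). Among genes of at least 1 CPM changed by a log2 of 1, the respective recoveries were 65, 65 and 63 of 66. Far more genes were called between the lines than were changed in the simulation, so its false rates need not hold for those comparisons. Alternatives were DESeq2 1.42.0, its size factors in edgeR, a filter of 1 CPM in 3 libraries, no filter, fits of the groups compared alone, a replicate block, removal of each library's GC trend (a lowess fit, 97.4% of genes with a value), both together, and leaving out each library.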

Additional observations from a re-analysis of the deposited data

How the results depend on the processing

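Of 1216 member values under alternatives, 1175 kept their direction and side of the threshold, 22 gained a call, 6 lost it and 13 changed sign, none of which was called. The 6 losses were all ID3 after TNF in M3. The sign changes were, for ID3 after TNF in N108, -0.01 with the GC trend removed (with or without the block) and -0.01 to 0.12 on leaving out 1 library; for BMP4 there, -0.06 to 0.01. For N108 against WT with TNF, ID3 gave -0.02 with the GC trend removed (with or without the block) and -0.04 to 0.09 on leaving out 1 library, and BAMBI -0.10 to 0.01. For the interaction with N108, BMP4 gave -0.04 with the GC trend removed (with or without the block) and -0.01 to 0.06 on leaving out 1 library, and SMAD6 -0.05 to 0.01.

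The members called for TNF in N108 were 2 with the GC trend removed, with or without the block, against 1. All genes called there were 228, and 652 without the low-count filter, 138 in the fit of the groups compared alone, and 143 to 1333 on leaving out 1 library (143 without N108 untreated replicate 2, 151 without N108 TNF replicate 2, 1333 without N108 TNF replicate 3). For TNF in WT 987 became 432 to 1023 on leaving out 1 library (562 without WT untreated replicate 2, 432 without WT TNF replicate 3). The interaction with N108 gave 1 member with DESeq2, without the low-count filter and with the GC trend removed (with or without the block), and 0 to 1 on leaving out 1 library. All genes called went from 498 to 1119 with DESeq2, 1362 without the filter, 137 with the GC trend removed and 177 with block and GC removal. They were 183 to 2430 on leaving out 1 library: without N108 untreated replicate 1 (227) or 2 (199), N108 TNF replicate 1 (277), 2 (191) or 3 (2430), WT untreated replicate 2 (190) or 3 (249), and WT TNF replicate 2 (318) or 3 (183). The interaction with M3 gave 1 member without the filter and with the GC trend removed (with or without the block), and 0 to 1 on leaving out 1 library. All genes called went from 60 to 145 with DESeq2, 265 without the filter, 217 with the GC trend removed and 245 with block and GC removal. They were 14 to 125 on leaving out 1 library: without M3 untreated replicate 2 (21), M3 TNF replicate 1 (24), 2 (23) or 3 (37), WT untreated replicate 1 (14) or 2 (16), and WT TNF replicate 1 (125) or 3 (29). The cause of these shifts was not tested. The counts between lines stayed within 1.5 times.

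The replicate numbers do not pair the samples: over 45 same-numbered pairs the correlation of deviations from the group means was -0.15 to 0.1, and it was over 0.1 in 1. With the replicate block 892 (WT), 200 (N108) and 248 (M3) genes were called for TNF, with 3, 1 and 2 members. The interactions gave 372 and 49 genes. Against WT, 7980 genes were called for N108 and 9962 for M3 untreated, 8747 and 10359 with TNF, and 5867 for N108 against M3. ID3 after TNF in M3 gave an adjusted p of 0.068 with the block. At this depth ID4, with 31 counts in its lowest library, had the widest standard errors of the members, and BMP2 could not be tested.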
